A study of Mus musculus with 12 samples.

Results

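The comparison set 3 libraries of mouse bone marrow progenitors carrying NUP98-NSD1 against 3 libraries of the same kind of cells carrying the empty vector, out of 12 libraries in the series. The libraries were taken by their column names, which give the vector, the shRNA and a replicate number. The NUP98-NSD1 cells were transduced with the fusion in the retroviral vector MSCV and with a control shRNA in the lentiviral vector pLKO.1. The cells of the other group carried MSCV with no insert and the same control shRNA. Both groups started from bone marrow cells positive for c-Kit and Sca-1 and negative for lineage markers, which is a fraction rich in stem and progenitor cells, and the medium of both held SCF (100 ng/ml) with IL-6 and IL-3 (20 ng/ml of either). The labels give no strain, age, sex or genotype of the donor mice, no count of animals per library and no time in culture. Transduced cells were selected with geneticin before the shRNA was brought in, and the retroviral construct, not an endogenous promoter, drove the fusion. The remaining 6 libraries carried the fusion with shRNAs against Nizp1. They entered the same fit, so they bear on which genes were tested, the scaling, the levels fitted per replicate number and the spread.

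NUP98-NSD1 joins the amino-terminal part of a nuclear pore protein, rich in phenylalanine-glycine repeats, to the carboxy-terminal part of NSD1, an enzyme that methylates histone H3 at lysine 36. The fusion gene arises by translocation in acute myeloid leukaemia of children and adults. HoxA genes of the cluster's 5' part encode homeobox transcription factors that are active in stem cells and shut off as blood cells mature. They are known to stay on in leukaemias with NUP98 fusions and to act with TALE homeobox cofactors such as Meis1.

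Per library, 4708272, 5436903 and 4937646 reads were assigned to genes with NUP98-NSD1 in experiments 1, 2 and 3, against 5977514, 4096524 and 4468392 with the empty vector. An experiment here means the libraries that share a replicate number, because the deviations of same-numbered libraries from their group means went together. A level of 3 counts corresponded to between 0.530 and 0.746 CPM (counts scaled to library size) in these 6 libraries, and values below that are at the edge of detection. The file lists 55376 genes, of which 31694 had no count in the 12 libraries, and 11994 passed the filter on low counts and were tested. Each adjusted p below comes from the quasi-likelihood test of edgeR with the replicate number as a block and Benjamini-Hochberg adjustment over the 11994 tested genes, and a gene is called where it lies under 0.05.

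The cells of both groups carried mast cell transcripts at high levels. The 25 mast cell markers summed to between 55970 and 75780 CPM with NUP98-NSD1 and between 58740 and 81680 CPM with the empty vector. Kit, the receptor for SCF, was at 2497, 2532 and 1930 CPM with NUP98-NSD1 and at 2644, 2647 and 2584 CPM with the empty vector in experiments 1, 2 and 3. Ly6a, which encodes Sca-1, was at 47.3, 184 and 154 CPM with NUP98-NSD1, against 23.8, 102 and 26.3 CPM with the empty vector. Transcripts of both positive sort markers were therefore present, in cultures whose most abundant lineage transcripts were those of mast cells. Kit is also 1 of the 25 mast cell markers, so its level does not tell progenitors from mast cells. The experiments also differed in other lineages: Ltf, a neutrophil granule gene, was at 60.7, 174 and 0 CPM with NUP98-NSD1 and at 40.6, 166 and 0 CPM with the empty vector. In bulk RNA, fewer cells of a type and less RNA per cell cannot be told apart.

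With NUP98-NSD1, 30 genes were called higher and 3 were called lower. These are 0.25% and 0.025% of the tested genes. The genes with the largest increases were HoxA genes and other genes nearly silent in the empty-vector cells, while most of the transcriptome showed no change past the test. The median log2 fold change over all tested genes was -0.00094, and the middle 50% of genes lay between -0.14 and 0.16. Before adjustment, 1319 genes or 11.0% of those tested had p under 0.05, 720 of them higher and 599 lower with NUP98-NSD1. The calls depended on single experiments: without experiments 1, 2 and 3 in turn, 0, 28 and 2 of the 33 were still called. Without NUP98-NSD1 replicate 3 the fit kept Hoxa9, Hoxa10, Nsd1 and Nup98 alone of the 33, and without empty-vector replicate 3 it kept these and Runx2.

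The increases gathered among genes of low level. Among 1878 genes that averaged under 5 CPM, 9 were called higher, and among 5555 genes between 5 and 50 CPM, 17 were. Of the 4314 genes between 50 and 500 CPM, 4 were called higher and 3 lower. None of the 247 genes at 500 CPM or above was called, although 16.2% of them had an unadjusted p under 0.05. Of the 30 genes called higher, 24 had a fold of at least 2, 10 averaged under 1 CPM in the empty-vector cells, and 3 had no count there at all. Those 3 passed the filter on low counts through libraries with the fusion alone, so their lack of empty-vector counts is no separate support. All 30 were higher in 3 of 3 experiments, as were 15.9% of all tested genes. In 24 of the 30 every NUP98-NSD1 library lay above every empty-vector library, a separation found in 3.68% of all tested genes. The 24 include Eya4, Hoxb5os, Robo1 and Kcnc1, whose lowest NUP98-NSD1 library was at 0.373 CPM. Values that low are at the edge of detection, so these 4 cannot be said to separate or to be higher in experiment 2. All 3 genes called lower were lower in 3 of 3 experiments, as were 16.3% of all tested genes, and in none of them did the groups stay apart. The called genes were picked by a test on these same libraries, so these shares add no support to the calls.

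**Figure D1:**
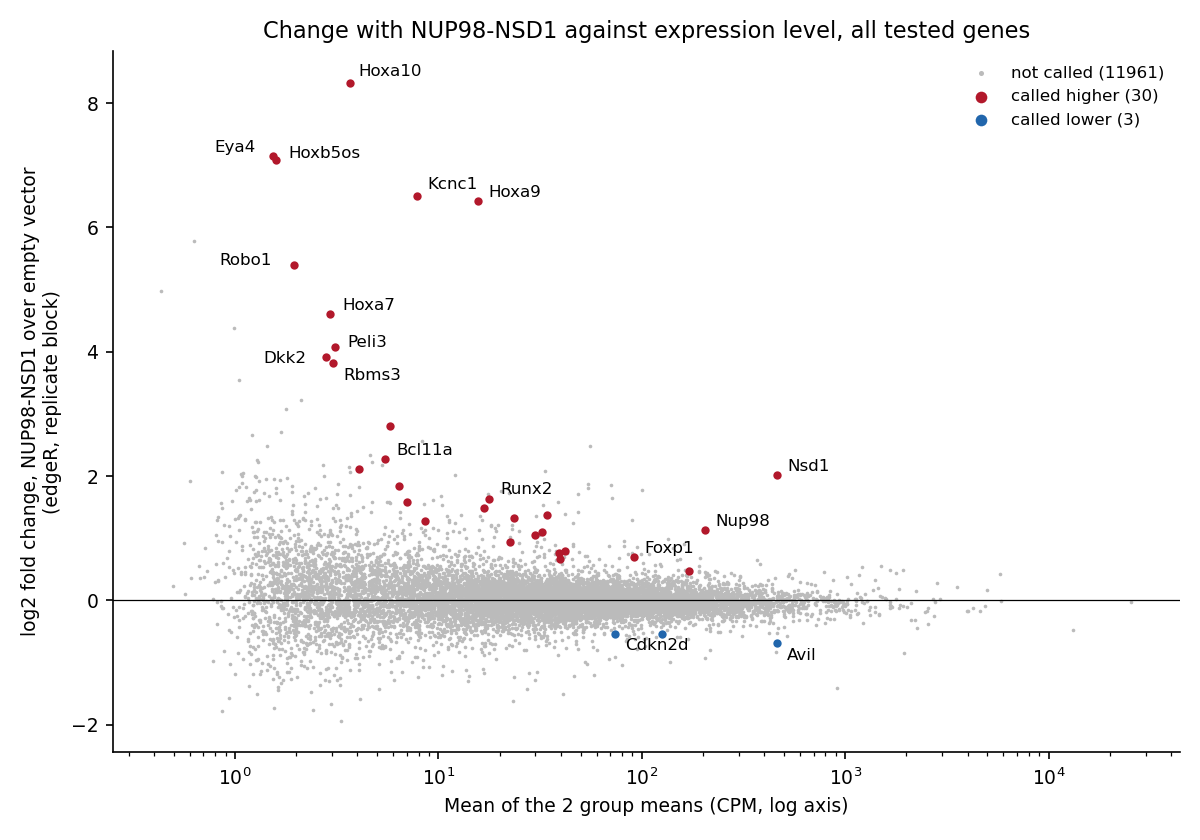
The log2 fold change of NUP98-NSD1 over empty vector (vertical axis, edgeR with the replicate block) is plotted for each of the 11994 tested genes against the mean of the group means in CPM (horizontal log axis). Red points are the 30 genes called higher and blue points the 3 called lower, the largest increases sit at low levels, and the fitted values of the 3 genes with no empty-vector count have no upper bound.

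The HoxA genes Hoxa9, Hoxa10 and Hoxa7 were all called higher, and their promoters are shown because these genes had few counts or none without the fusion. Counts per gene do not show which start site was used. Each stretch runs from 250 bases before to 50 bases after the RefSeq start (build GRCm38.p6, minus strand of chromosome 6, written 5' to 3'), and capitals mark CpG dinucleotides. Hoxa10 lies at chr6:52240805-52241104, Hoxa9 at chr6:52227321-52227620 and Hoxa7 at chr6:52218524-52218823.
Hoxa10: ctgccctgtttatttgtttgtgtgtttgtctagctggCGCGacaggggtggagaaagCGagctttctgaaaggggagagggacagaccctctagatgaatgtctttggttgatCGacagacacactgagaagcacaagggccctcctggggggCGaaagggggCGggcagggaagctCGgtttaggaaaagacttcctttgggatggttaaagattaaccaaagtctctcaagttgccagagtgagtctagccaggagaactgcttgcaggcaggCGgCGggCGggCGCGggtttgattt
Hoxa9: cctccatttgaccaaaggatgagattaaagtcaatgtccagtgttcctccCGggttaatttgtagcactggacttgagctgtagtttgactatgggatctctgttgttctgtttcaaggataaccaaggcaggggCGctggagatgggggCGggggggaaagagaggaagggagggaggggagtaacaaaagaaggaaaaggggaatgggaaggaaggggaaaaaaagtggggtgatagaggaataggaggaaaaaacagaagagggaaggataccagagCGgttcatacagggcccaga
Hoxa7: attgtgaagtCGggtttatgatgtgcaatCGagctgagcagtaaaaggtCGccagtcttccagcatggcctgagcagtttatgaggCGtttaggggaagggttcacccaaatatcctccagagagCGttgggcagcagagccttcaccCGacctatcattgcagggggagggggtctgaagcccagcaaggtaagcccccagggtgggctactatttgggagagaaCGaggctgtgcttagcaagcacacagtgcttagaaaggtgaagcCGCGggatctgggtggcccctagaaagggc

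The Hoxa10 stretch holds 12 CpG, the Hoxa9 stretch 4 and the Hoxa7 stretch 9, with a GC content of 54.3%, 49.7% and 55.7%. A second RefSeq start of Hoxa10, at chr6:52234890-52235189, has 21 CpG. Over 32851 promoter stretches of the same length in the RefSeq table the median was 7 CpG, and over the 11763 stretches of tested genes it was 20. Of the 30 genes called higher, 26 have at least 1 stretch in the table, 40 stretches in all, with a median of 13 CpG. A composite PBX-HOX word, TGATTNAT on either strand, was in 0 of these 40 stretches, in 1.22% of the stretches of tested genes and in 3.22% of all stretches. The MEIS word TGACAG on either strand was in 5 of the 40, of the genes Foxp1, Lims1, Bdh1 and 2900026A02Rik, in 16.8% of the stretches of tested genes and in 19.2% of all stretches. Neither word occurs in the stretches printed above, which says only that these letters are not there.

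Hoxa9, a homeobox regulator that keeps blood stem cells renewing, was at 18.8, 11.0 and 62.8 CPM with NUP98-NSD1 in experiments 1, 2 and 3, against 0.176, 0.746 and 0.217 CPM with the empty vector. Its log2 fold change was 6.42 (SE 0.50, adjusted p = 2.42e-04), and the lowest NUP98-NSD1 library lay far above the highest empty-vector library. Hoxa10, its neighbour in the cluster, was at 4.82, 2.05 and 15.1 CPM with NUP98-NSD1 and had no count in the 3 empty-vector libraries. Over the group it was at least 34.9-fold higher (adjusted p = 3.06e-04), taking 3 counts over the empty-vector group as the floor. Hoxa7 was at 3.72, 1.86 and 11.4 CPM with NUP98-NSD1, against 0.176, 0.497 and 0 CPM with the empty vector. The counts of Hoxa7 were 85 and 3, a ratio of 26.9 with a 95% exact binomial interval of 8.91 to 133 (adjusted p = 0.0267). All 3 genes had the same order of experiments, with the highest level in experiment 3 and the lowest in experiment 2. Hoxa9 and Hoxa10 were called with each of the 6 libraries left out in turn, and Hoxa7 in 2 of those 6 fits. With limma-voom Hoxa7 was not called (adjusted p = 0.0907).

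The other HoxA genes described had few counts or none. Per length, Hoxa9 reached 9.57 CPM per kb of exon with NUP98-NSD1, Hoxa10 2.33 and Hoxa7 2.27. Hoxa3 had 5, 0 and 6 counts with NUP98-NSD1 and 0 with the empty vector, Hoxa5 had 2, 0 and 7 against 0, and Hoxa6 had 0, 0 and 3 against 0. Hoxa2 had 2 counts with NUP98-NSD1 against 0 with the empty vector. Hoxa4, Hoxa11 and Hoxa13 had no count in either group, a count that allows up to 0.746 CPM per library. Of the 31 annotated genes in the cluster's span the 3 named above were the only ones with enough counts to be tested. Hotairm1, a non-coding RNA at the 3' end of the cluster, had 3 counts against 0, Hoxaas3, which overlaps Hoxa7 on the opposite strand, had 1 against 0, and the microRNA gene Mir196b between Hoxa9 and Hoxa10 had 0 and 0.

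**Figure D2:**
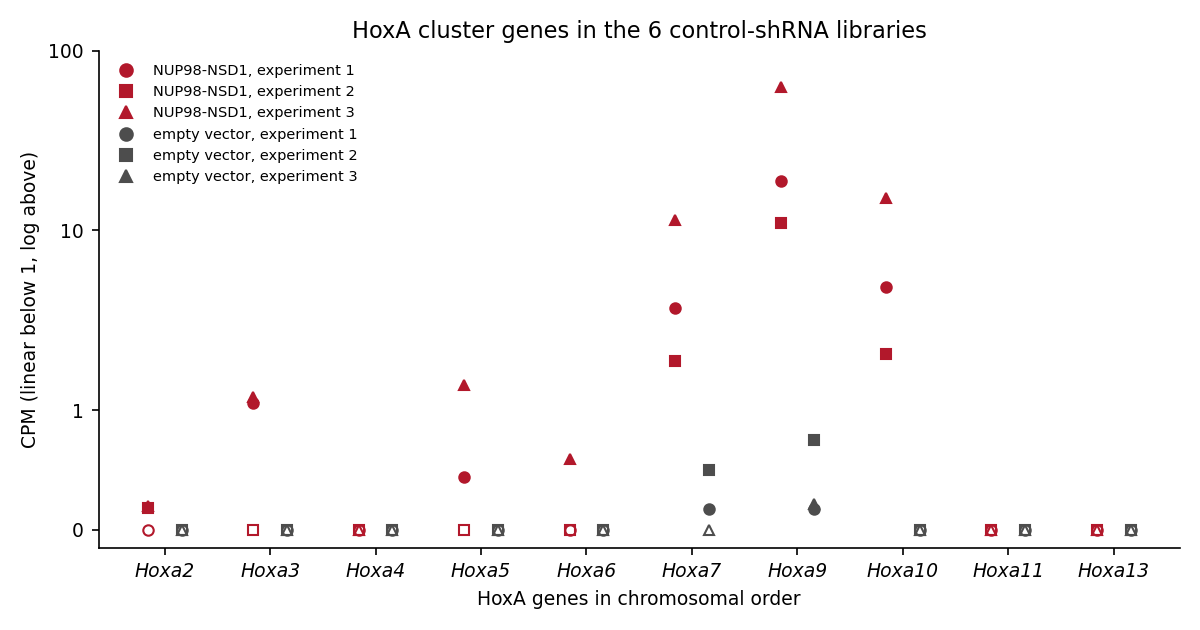
Levels in CPM (vertical axis, linear below 1 and log above) are shown for 10 HoxA genes in chromosomal order (horizontal axis), with NUP98-NSD1 libraries in red on the left and empty-vector libraries in grey on the right of each gene, 1 symbol per experiment and open symbols at 0. Hoxa7, Hoxa9 and Hoxa10 stand above 1 CPM in all 3 NUP98-NSD1 libraries, and no empty-vector library reaches 1 CPM in any gene shown.

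Outside the HoxA cluster, a non-coding RNA of the HoxB cluster was called. Hoxb5os, transcribed opposite Hoxb5 and Hoxb6 (chromosome 11, 96291024 to 96306910, minus strand), was at 1.53, 0.373 and 7.65 CPM with NUP98-NSD1 and had no count with the empty vector, at least 15.2-fold higher (adjusted p = 0.0197). Hoxb5 had no count in either group, and Hoxb6 had 0 counts with NUP98-NSD1 against 1 with the empty vector. Hoxb4, a homeobox factor of stem cell expansion, had 77 counts with NUP98-NSD1 and 74 with the empty vector. Hoxb3 had 6, 7 and 17 counts with NUP98-NSD1 against 2, 0 and 0 with the empty vector, and was not called (adjusted p = 0.176). Hoxb5os was called in 4 of the 6 fits with a library left out. Its counts were 7, 2 and 39 with NUP98-NSD1 in experiments 1, 2 and 3, so its level in experiment 2 rests on fewer than 3 reads.

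TALE cofactors, the homeodomain partners of Hox proteins, were present in both groups, and none of the 9 tested was called by edgeR, DESeq2 or limma-voom, while 2 had an unadjusted p under 0.05, both higher. Their median log2 fold change was 0.32, with 6 of 9 above 0, and the median ratio was 0.10, 0.18 and -0.20 in experiments 1, 2 and 3. Meis1 was at 134, 66.7 and 148 CPM with NUP98-NSD1, against 101, 56.2 and 95.5 CPM with the empty vector. Its log2 fold change of 0.43 (SE 0.12, unadjusted p = 0.0024) did not pass adjustment (adjusted p = 0.21). It was higher in 3 of 3 experiments, with groups that overlapped.

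Both genes that make up the fusion were called. Nsd1 (chromosome 13, 55209782 to 55318325) was at 788, 699 and 745 CPM with NUP98-NSD1, against 185.5, 230 and 139 CPM with the empty vector, and its log2 fold change was 2.01 (SE 0.17, adjusted p = 4.90e-04). Nup98 (chromosome 7, 102119398 to 102210176) was at 286, 319 and 241 CPM with NUP98-NSD1, against 124, 161 and 103 CPM with the empty vector, and its log2 fold change was 1.14 (SE 0.12, adjusted p = 3.98e-04). The groups did not overlap in either gene, and both were called with each of the 6 libraries left out in turn. In counts per gene, transcripts of the construct and of the endogenous genes cannot be told apart. The labels do not say whether the construct is human or mouse, so the share of its reads that was counted under these mouse genes is unknown. Of 20 enzymes and subunits of H3K36 and H3K27 methylation Nsd1 was the sole call, and the list's median was -0.03. Its relative Nsd2 was at 86.5, 102 and 108 CPM with NUP98-NSD1 and at 88.1, 118 and 145 CPM with the empty vector. Of 30 tested nucleoporins and transport factors Nup98 was the sole call, and the median was 0.03. Zkscan17, which encodes the NSD1-binding zinc finger protein Nizp1, was at 62.6, 49.4 and 61.8 CPM with NUP98-NSD1 and at 64.2, 57.0 and 68.2 CPM with the empty vector (adjusted p = 0.728).

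Runx2, a Runt-domain factor known for bone formation, was at 23.0, 24.6 and 33.6 CPM with NUP98-NSD1, against 7.06, 11.2 and 7.60 CPM with the empty vector. Its log2 fold change was 1.64 (SE 0.22, adjusted p = 0.00684), the groups stayed apart, and it was called in 5 of the 6 fits with a library left out, the exception being NUP98-NSD1 replicate 3. Runx2 shares its span with Supt3 and with Runx2os transcripts on the opposite strand. Bcl11a, a zinc finger repressor of fetal globin genes that lymphoid development needs, was at 3.94, 6.52 and 17.1 CPM with NUP98-NSD1, against 0.706, 2.98 and 1.74 CPM with the empty vector (log2 fold change 2.28, SE 0.39, adjusted p = 0.0267). Foxp1, a forkhead factor, was at 109, 101 and 129 CPM with NUP98-NSD1 and at 80.8, 64.4 and 63.4 CPM with the empty vector (log2 fold change 0.70, SE 0.11, adjusted p = 0.0197). In all 3 genes the highest library was NUP98-NSD1 in experiment 3.

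Eya4, a phosphatase and transcriptional coactivator of the eyes absent family, was at 5.47, 0.373 and 3.34 CPM with NUP98-NSD1 and had no count with the empty vector, at least 13.9-fold higher (adjusted p = 0.0227). Its level in experiment 2 rests on fewer than 3 reads. Bmyc, a short relative of the Myc genes, was at 9.42, 9.32 and 17.9 CPM with NUP98-NSD1 and at 4.94, 3.48 and 6.30 CPM with the empty vector (log2 fold change 1.27, adjusted p = 0.0302). Bahcc1, a chromatin protein with a bromo-adjacent homology domain that reads methylated H3K27, averaged 43.9 ± 6.36 CPM with NUP98-NSD1 and 21.0 ± 5.59 CPM with the empty vector (SD, n = 3 each), with a lowest library of 39.4 CPM in NUP98-NSD1 cells and a highest of 26.1 CPM in empty-vector cells (log2 fold change 1.10, adjusted p = 0.0305). The groups did not overlap in Bmyc and Bahcc1. In the 6 fits with a library left out Bmyc was called in 2 and Bahcc1 in 1. With limma-voom Bahcc1 was not called (adjusted p = 0.0568). In Eya4 the lowest NUP98-NSD1 library was under 3 counts and cannot be ranked against the empty vector. Across the 24 tested leukaemia self-renewal regulators, edgeR called 1 higher, which is Bcl11a, and the median log2 fold change was 0.08. At an unadjusted p under 0.05, 6 were higher and 0 lower, and DESeq2 called 2, Bcl11a and Cdk6. Cdk6, a G1 kinase, was at 137, 149 and 266 CPM with NUP98-NSD1 against 93.5, 116 and 127 CPM with the empty vector (log2 fold change 0.65, adjusted p = 0.193). Mecom, a stem cell zinc finger factor, was at 43.4, 16.2 and 62.0 CPM with NUP98-NSD1 against 21.7, 11.7 and 27.4 CPM with the empty vector (log2 fold change 0.94, adjusted p = 0.295). Cdk6 and Mecom were higher in 3 of 3 experiments without passing the edgeR test, and DESeq2 called Cdk6 (adjusted p = 0.0128).

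Dkk2, a secreted modulator of Wnt receptors, was at 7.88, 4.29 and 3.53 CPM with NUP98-NSD1, against 0.353, 0.497 and 0.217 CPM with the empty vector (log2 fold change 3.92, SE 0.67, adjusted p = 0.0267). It is 1 of the 7 genes called higher whose top level was in experiment 1. Cxxc5, a CXXC zinc finger protein that binds CpG and interacts with Dishevelled, was at 7.88, 4.47 and 7.65 CPM with NUP98-NSD1 and at 1.76, 1.24 and 1.52 CPM with the empty vector (log2 fold change 2.11, SE 0.38, adjusted p = 0.0344). Among 18 tested ligands, receptors and antagonists of the Wnt pathway these 2 were called, and the median of the list was -0.05 with 7 of 18 above 0. Tnfsf10, the death receptor ligand TRAIL, was at 25.6, 67.1 and 55.1 CPM with NUP98-NSD1 and at 12.7, 29.4 and 14.8 CPM with the empty vector (log2 fold change 1.37, SE 0.22, adjusted p = 0.0305), with the lowest NUP98-NSD1 library under the highest empty-vector library. P2ry10, a receptor for lysophospholipids, was at 27.8, 37.8 and 35.7 CPM with NUP98-NSD1 and at 14.5, 17.9 and 8.25 CPM with the empty vector (log2 fold change 1.32, SE 0.21, adjusted p = 0.0227).

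Robo1, a receptor for Slit guidance cues, was at 7.23, 0.373 and 3.92 CPM with NUP98-NSD1, against 0, 0.249 and 0 CPM with the empty vector. Its counts were 55 and 1, a ratio of 52.3 with an exact interval of 9.01 to 2103 (adjusted p = 0.0267). Kcnc1, a voltage-gated potassium channel, was at 4.60, 0.373 and 41.6 CPM with NUP98-NSD1, against 0, 0.249 and 0.217 CPM with the empty vector, a ratio of 112 (interval 30.6 to 928, adjusted p = 0.0267). Both genes were at the edge of detection in the NUP98-NSD1 library of experiment 2, and each was called in few of the 6 fits with a library left out, Robo1 in 2 and Kcnc1 in 3. Adcy6, an adenylate cyclase, was at 7.45, 4.10 and 20.8 CPM with NUP98-NSD1 and at 3.53, 1.99 and 4.13 CPM with the empty vector (log2 fold change 1.58, adjusted p = 0.0351). The surface receptors Lilra6 and Clec2i had log2 fold changes of 0.66 and 0.94 (adjusted p = 0.0423 and 0.0267). Lilra6 belongs to a family of closely similar genes between which reads may have been split.

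**Figure D3:**
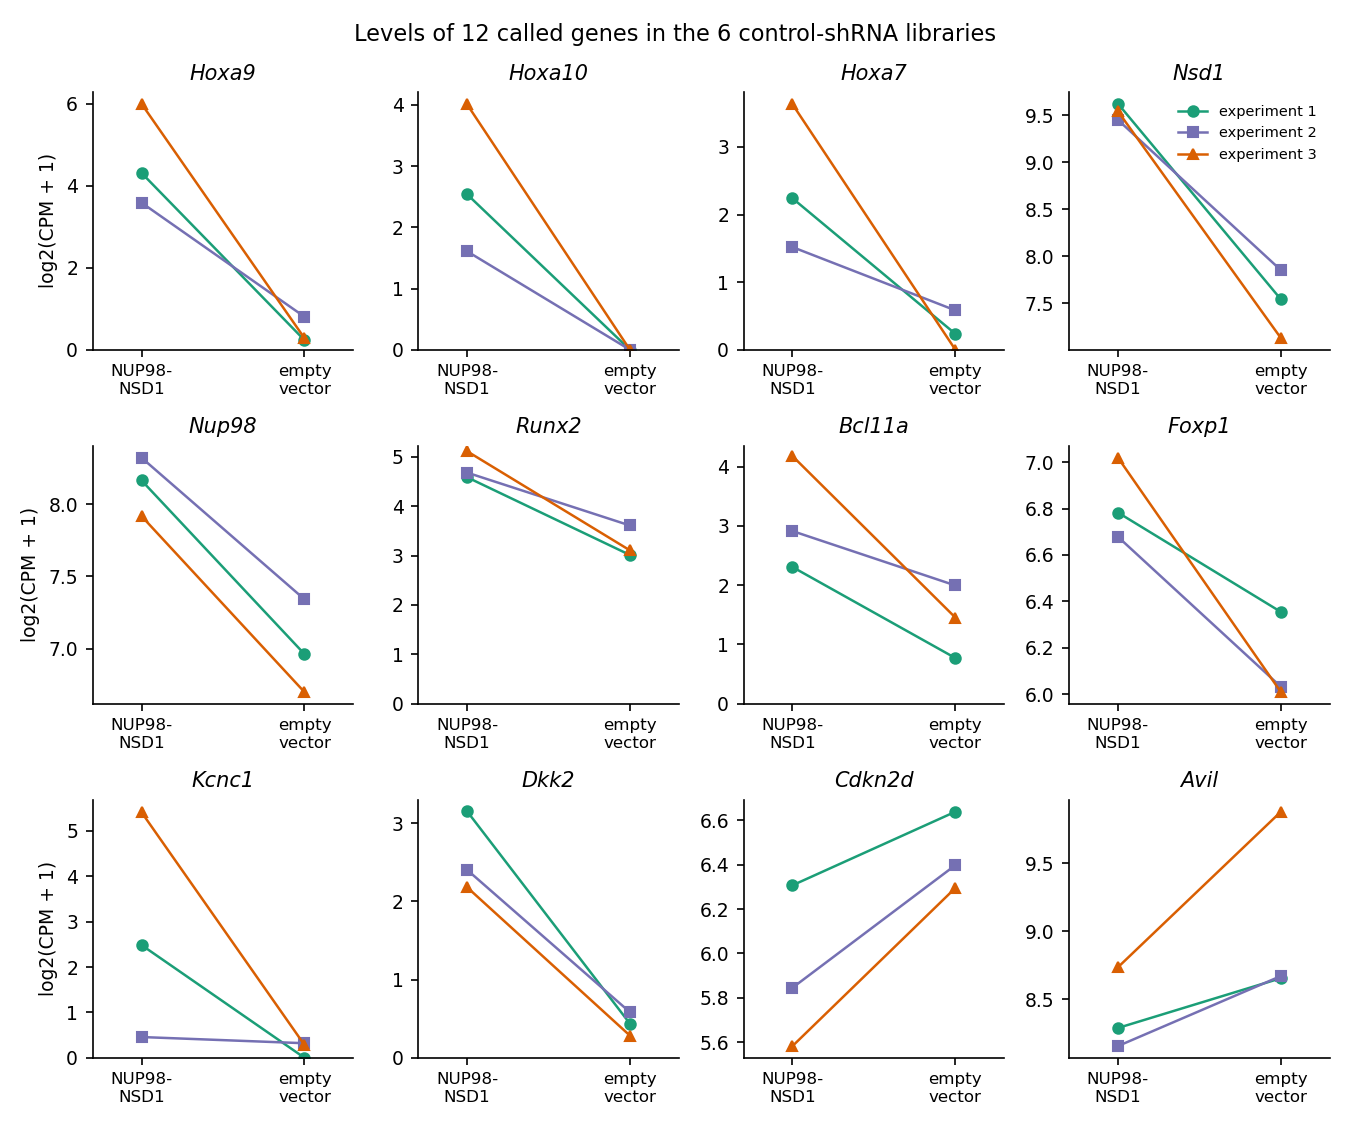
Each panel shows 1 called gene as log2(CPM + 1) (vertical axis) with NUP98-NSD1 on the left and the empty vector on the right, and a line joins the libraries of an experiment. All lines fall towards the empty vector in the 10 genes called higher and climb in Cdkn2d and Avil, and Kcnc1 is nearly level in experiment 2. The axes of Nsd1, Nup98, Foxp1, Cdkn2d and Avil do not start at 0.

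Bdh1, a mitochondrial enzyme of ketone body metabolism, was at 7.45, 6.34 and 16.3 CPM with NUP98-NSD1, against 1.59, 2.74 and 4.13 CPM with the empty vector (log2 fold change 1.84, SE 0.30, adjusted p = 0.0227). Egln3, an oxygen-sensing prolyl hydroxylase, was at 81.2, 68.4 and 7.65 CPM with NUP98-NSD1 and at 43.4, 48.0 and 2.61 CPM with the empty vector (log2 fold change 0.79, SE 0.15, adjusted p = 0.0417). The step between experiments was larger for Egln3 than the step between the groups, so its groups overlapped although it was higher in 3 of 3 experiments. It was the sole call among 26 genes of hypoxia response and glycolysis, whose median was -0.01 with 13 above 0. Dnajc6, the clathrin-uncoating factor auxilin, was at 32.6, 19.9 and 68.3 CPM with NUP98-NSD1 and at 16.1, 10.4 and 31.3 CPM with the empty vector (log2 fold change 1.05, SE 0.15, adjusted p = 0.0113). Fcho2, which starts clathrin-coated pits, was at 47.5, 57.0 and 41.6 CPM with NUP98-NSD1 and at 30.7, 38.1 and 18.9 CPM with the empty vector (log2 fold change 0.77, adjusted p = 0.0372). Lims1, an adaptor of integrin-linked kinase, had the smallest called increase and little spread, at 191, 201 and 203 CPM with NUP98-NSD1 against 148, 140 and 144 CPM with the empty vector (log2 fold change 0.46, SE 0.08, adjusted p = 0.0305). Peli3, an E3 ubiquitin ligase of innate signalling, Rbms3, an RNA-binding protein, and Cep85l, a centrosomal protein, had log2 fold changes of 4.08, 3.82 and 1.49. Peli3 was at 0.746 CPM with NUP98-NSD1 and 0.497 CPM with the empty vector in experiment 2, so its increase rests on experiments 1 and 3.

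The genes called lower had small changes. Cdkn2d, which encodes the cyclin-dependent kinase inhibitor p19INK4d, was at 78.2, 56.5 and 46.9 CPM with NUP98-NSD1, against 98.7, 83.3 and 77.5 CPM with the empty vector (log2 fold change -0.54, SE 0.10, adjusted p = 0.0351). Cdkn2d was not called without replicate 1, 2 or 3 of NUP98-NSD1 or replicate 3 of the empty vector. The other CDK inhibitors and D cyclins, 13 tested with Cdkn2d, had no further call by edgeR, and 7 of the 13 lay above 0, with an unadjusted p under 0.05 in 4 that were higher and 2 that were lower. DESeq2 called Cdk6 higher as well. Avil, an actin-binding protein of the gelsolin family, was at 312, 284 and 425 CPM with NUP98-NSD1, against 402, 406 and 939 CPM with the empty vector (log2 fold change -0.69, SE 0.13, adjusted p = 0.0359). The empty-vector library of experiment 3 held the highest level of Avil by far, and Avil was not called with RLE scaling (log2 fold change -0.69, adjusted p = 0.0522), nor without replicate 1, 2 or 3 of NUP98-NSD1 or replicate 3 of the empty vector. The third gene carries a predicted name. Each of these genes was lower in 3 of 3 experiments, with groups that overlapped.

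**Figure D4:**
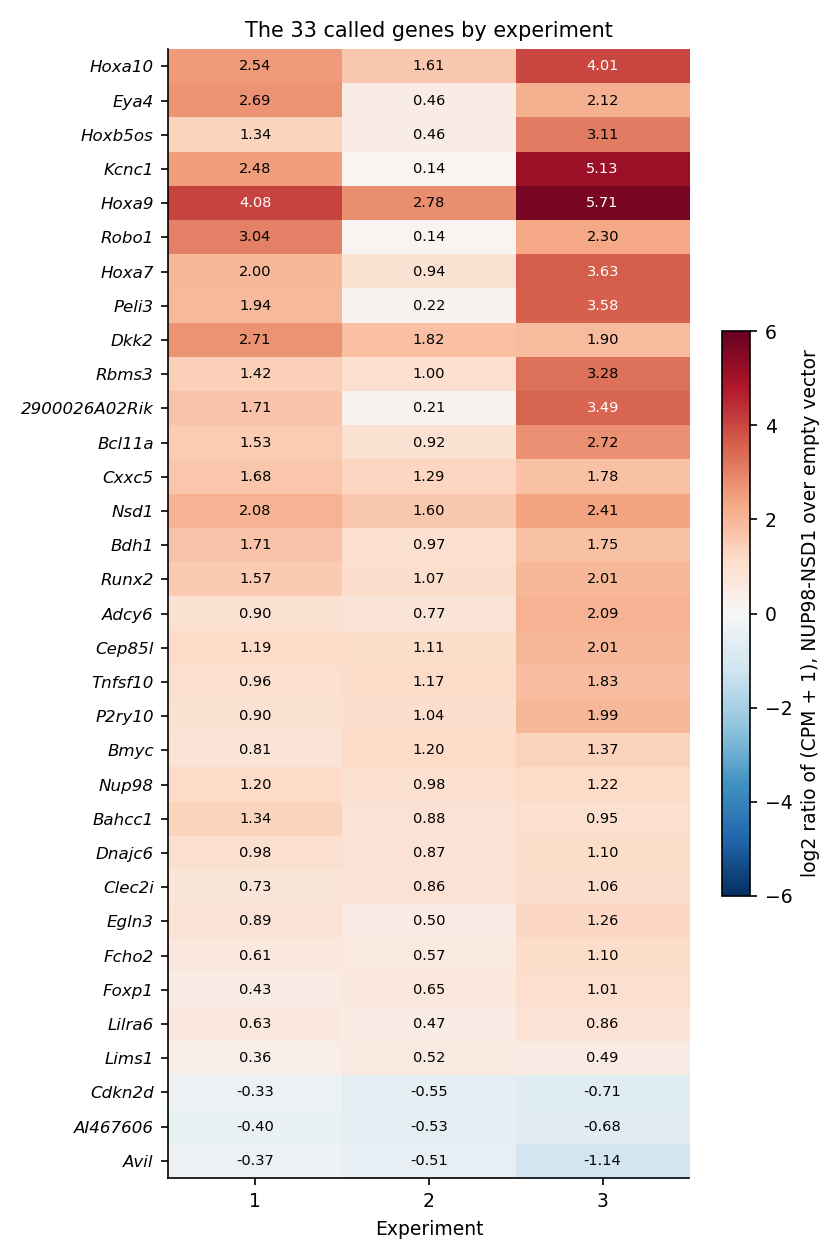
Rows are the 33 called genes in order of log2 fold change, columns the experiments, and each cell prints the log2 ratio of CPM + 1 in the NUP98-NSD1 library over the empty-vector library. Red cells are higher with NUP98-NSD1 and blue cells lower. Every row prints 1 sign throughout, and Hoxa9 at 4.08, 2.78 and 5.71 has the strongest ratios. Robo1 and Kcnc1 have 0.14 in experiment 2. There they, Eya4 and Hoxb5os are at the edge of detection in both groups, so the sign cannot be told.

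The experiments contributed unequally. In 18 of the 30 genes called higher the top NUP98-NSD1 library was that of experiment 3, in 7 that of experiment 1 and in 5 that of experiment 2. These counts rank levels, not ratios, and the share over all tested genes was not computed. They therefore do not measure what an experiment contributed. Egln3 had its top level in experiment 1, while its log2 ratio was 0.89, 0.50 and 1.26 in experiments 1, 2 and 3. Over the 9080 genes that averaged 10 CPM or more, the SD of the log2 ratio of NUP98-NSD1 over empty vector was 0.274 in experiment 1, 0.303 in experiment 2 and 0.428 in experiment 3. The median absolute log2 difference between the groups within an experiment was 0.138, 0.160 and 0.212. Between empty-vector libraries of different experiments it was larger, 0.213 for 2 against 1, 0.267 for 3 against 1 and 0.237 for 3 against 2. The difference between experiments was therefore larger than that between the groups for a typical gene. With no replicate block in the model, Nsd1 was the sole gene called by edgeR, and 320 genes had an unadjusted p under 0.05. Leaving out NUP98-NSD1 replicates 1, 2 and 3 in turn gave 18, 15 and 4 genes called higher, and leaving out empty-vector replicates 1, 2 and 3 gave 80, 75 and 5. The 33 called genes kept their direction in all of these fits, which adds little, since each had ratios of 1 sign in all 3 experiments. Hoxa9, Hoxa10, Nsd1 and Nup98 were the 4 called in each of the leave-one-out fits.

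Gene lists placed the calls in the wider transcriptome. The 33 lists include the HoxA cluster, share some members and covered 518 tested genes. Of the 33 called genes 10 stood on a list, among them Hoxa7, Hoxa9, Hoxa10, Nsd1 and Nup98. For comparison, of all 11994 tested genes 720 were higher and 599 lower at an unadjusted p under 0.05, and 49.8% lay above 0. Haematopoietic stem and progenitor markers, 16 tested, had 0 calls by edgeR and a median of 0.31, with 11 of 16 above 0 against 49.8% of all tested genes. At an unadjusted p under 0.05, 5 were higher and 1 lower, and DESeq2 called 1, Hlf. Hlf, a stem cell transcription factor, was at 59.1, 36.2 and 104 CPM with NUP98-NSD1, against 27.4, 21.4 and 28.4 CPM with the empty vector (log2 fold change 1.25, SE 0.31, adjusted p = 0.246), and its groups did not overlap. Cd34, a progenitor surface protein, was at 1640, 1234 and 1870 CPM with NUP98-NSD1 against 1347, 1170 and 1180 CPM with the empty vector (log2 fold change 0.33, adjusted p = 0.335). Tek, the angiopoietin receptor of quiescent stem cells, lay on the other side, at 7.67, 14.7 and 13.5 CPM with NUP98-NSD1 against 13.8, 18.7 and 28.4 CPM with the empty vector (log2 fold change -0.77, adjusted p = 0.335).

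Mast cell markers had 0 calls by edgeR among 25 tested, a median of -0.02 and 12 above 0. At an unadjusted p under 0.05, 1 was higher and 4 were lower, and DESeq2 called 1, Cma1. Cpa3, the mast cell carboxypeptidase, averaged 25280 ± 4239 CPM with NUP98-NSD1 and 25730 ± 4768 CPM with the empty vector (SD, n = 3 each). The chymase Cma1 was at 12350, 14570 and 7052 CPM with NUP98-NSD1 against 16220, 17100 and 11910 CPM with the empty vector (log2 fold change -0.47, SE 0.12, adjusted p = 0.193). Hdc, the enzyme that makes histamine, was at 116, 181 and 32.0 CPM with NUP98-NSD1 against 200, 223 and 41.7 CPM with the empty vector (log2 fold change -0.48, adjusted p = 0.207). Hpgds, the prostaglandin D synthase of mast cells, was at 178, 192 and 228 CPM with NUP98-NSD1 against 151, 161 and 142 CPM with the empty vector (log2 fold change 0.38, adjusted p = 0.272). Each of these 3 genes had 1 direction in all 3 experiments. The tryptases Tpsab1 and Tpsb2 had larger decreases, with log2 fold changes of -1.41 and -0.85 (adjusted p = 0.478 and 0.423). Both were lower in 3 of 3 experiments. Mcpt8 lay on the other side, at 0.84 (adjusted p = 0.537), and was higher in 3 of 3 experiments. The Mcpt, Cma and Tps families hold similar copies between which reads may have been split.

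Genes of MHC class II presentation and dendritic cells had no call by edgeR among 13 tested and a median of 1.07. Of the 13, 12 lay above 0, against 49.8% of all tested genes. At an unadjusted p under 0.05, 9 were higher and 0 lower, and DESeq2 called 2, H2-Aa and H2-Eb1. The median ratio within an experiment was 0.48, 0.90 and 0.69. Summed over its 22 members, the list ran between 116 and 498 CPM with NUP98-NSD1 and between 72.3 and 223 CPM with the empty vector, and 1 member had no count in the 6 libraries. H2-Aa, a class II alpha chain, was at 6.57, 69.9 and 2.16 CPM with NUP98-NSD1 against 4.41, 24.9 and 0.869 CPM with the empty vector (log2 fold change 1.22, SE 0.27, adjusted p = 0.0982). H2-Eb1, a class II beta chain, was at 5.69, 39.9 and 0.981 CPM with NUP98-NSD1 against 1.59, 14.2 and 0.217 CPM with the empty vector (log2 fold change 1.54, SE 0.32, adjusted p = 0.0791). Tcf4, a factor of plasmacytoid dendritic cells, was at 4.82, 12.5 and 7.46 CPM with NUP98-NSD1 against 1.94, 6.22 and 0.651 CPM with the empty vector (log2 fold change 1.58, adjusted p = 0.193). H2-Aa, H2-Eb1 and Tcf4 were each higher in 3 of 3 experiments at levels that differed several-fold between experiments. Cd74, the most highly expressed member, was lower in 2 of 3 experiments. It was at 21.9, 192 and 4.12 CPM with NUP98-NSD1 against 27.7, 72.6 and 5.21 CPM with the empty vector (log2 fold change 0.56, adjusted p = 0.598). H2-Ab1, the next, was higher in 3 of 3 experiments (log2 fold change 0.69, adjusted p = 0.262).

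Interferon-stimulated genes had no call by edgeR among 36 tested and a median of 1.02, with 33 above 0 against 49.8% of all tested genes. At an unadjusted p under 0.05, 9 were higher and 0 lower, and DESeq2 called 1, Ifi47. The median ratio was 0.15 in experiment 1, 1.45 in experiment 2 and -0.01 in experiment 3. Ifit2 was at 13.4, 166 and 10.8 CPM with NUP98-NSD1 and at 9.71, 25.4 and 7.60 CPM with the empty vector (log2 fold change 1.58, adjusted p = 0.347). Ifi44 was at 5.91, 147 and 0.196 CPM with NUP98-NSD1 and at 5.12, 37.8 and 0 CPM with the empty vector (log2 fold change 1.53, adjusted p = 0.422), and without NUP98-NSD1 replicate 2 its log2 fold change was -0.26. Both genes were highest in experiment 2, in either group.

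Other lineages gave few values outside the spread. Megakaryocyte genes had 0 calls by edgeR among 13, with 3 above 0 and a median of -0.13, while 3 were lower at an unadjusted p under 0.05 and DESeq2 called 1, Vwf. Vwf, the von Willebrand factor, was at 32.6, 64.1 and 17.5 CPM with NUP98-NSD1 against 51.4, 79.3 and 41.0 CPM with the empty vector (log2 fold change -0.71, SE 0.16, adjusted p = 0.105). Eosinophil markers had 0 calls by either tool among 8, with 2 above 0 and a median of -0.68, and at an unadjusted p under 0.05, 1 was higher and 2 were lower. Prg2, the eosinophil major basic protein, was at 7.01, 37.3 and 0.196 CPM with NUP98-NSD1 against 10.1, 125 and 0 CPM with the empty vector (log2 fold change -1.28, adjusted p = 0.246). Ccr3, the eotaxin receptor, lay on the other side, at 6.13, 4.66 and 9.62 CPM with NUP98-NSD1 against 2.65, 1.74 and 3.04 CPM with the empty vector (log2 fold change 1.43, SE 0.29, adjusted p = 0.0751), with no overlap between the groups. Monocyte and macrophage markers had 0 calls by either tool among 18 (1 higher at an unadjusted p under 0.05) and a median of 0.17, with -0.40, 0.77 and 0.61 in experiments 1, 2 and 3. The 22 neutrophil maturation genes had 0 calls by either tool (1 higher at an unadjusted p under 0.05) and a median of 0.13, and their summed level ran between 107 and 2229 CPM with NUP98-NSD1 and between 73.4 and 2179 CPM with the empty vector. Lists for stromal and endothelial cells (4 tested), T and NK cells (5), B cells (4) and erythroid cells (7) had 0 calls each by either tool, and 1 erythroid gene was lower at an unadjusted p under 0.05.

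Among cell cycle lists, S phase genes had 0 calls by either tool in 30 (0 at an unadjusted p under 0.05), a median of -0.06 and 8 above 0. G2 and M phase genes had 0 calls by either tool in 30 (2 lower at an unadjusted p under 0.05), a median of -0.16 and 4 above 0. Of all tested genes 49.8% lay above 0. Cenpf, a kinetochore protein, was at 71.0, 72.3 and 65.5 CPM with NUP98-NSD1 against 81.4, 88.1 and 83.4 CPM with the empty vector (log2 fold change -0.27, SE 0.09, adjusted p = 0.309), and its groups did not overlap. Transcripts of the mitochondrial genome had 0 calls by edgeR among 7, all 7 above 0, 5 of them at an unadjusted p under 0.05, and DESeq2 called 2, mt-Nd2 and mt-Nd5. The list had a median of 0.46 and medians of 0.10, 0.44 and 0.81 by experiment. Of these, mt-Nd5 was at 1715, 1814 and 1817 CPM with NUP98-NSD1 against 1457, 1233 and 946 CPM with the empty vector (log2 fold change 0.56, SE 0.15, adjusted p = 0.235). The sum of the mitochondrial list ran between 15320 and 17630 CPM with NUP98-NSD1 and between 9936 and 14240 CPM with the empty vector. Its part in the calls was not tested.

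**Figure D5:**
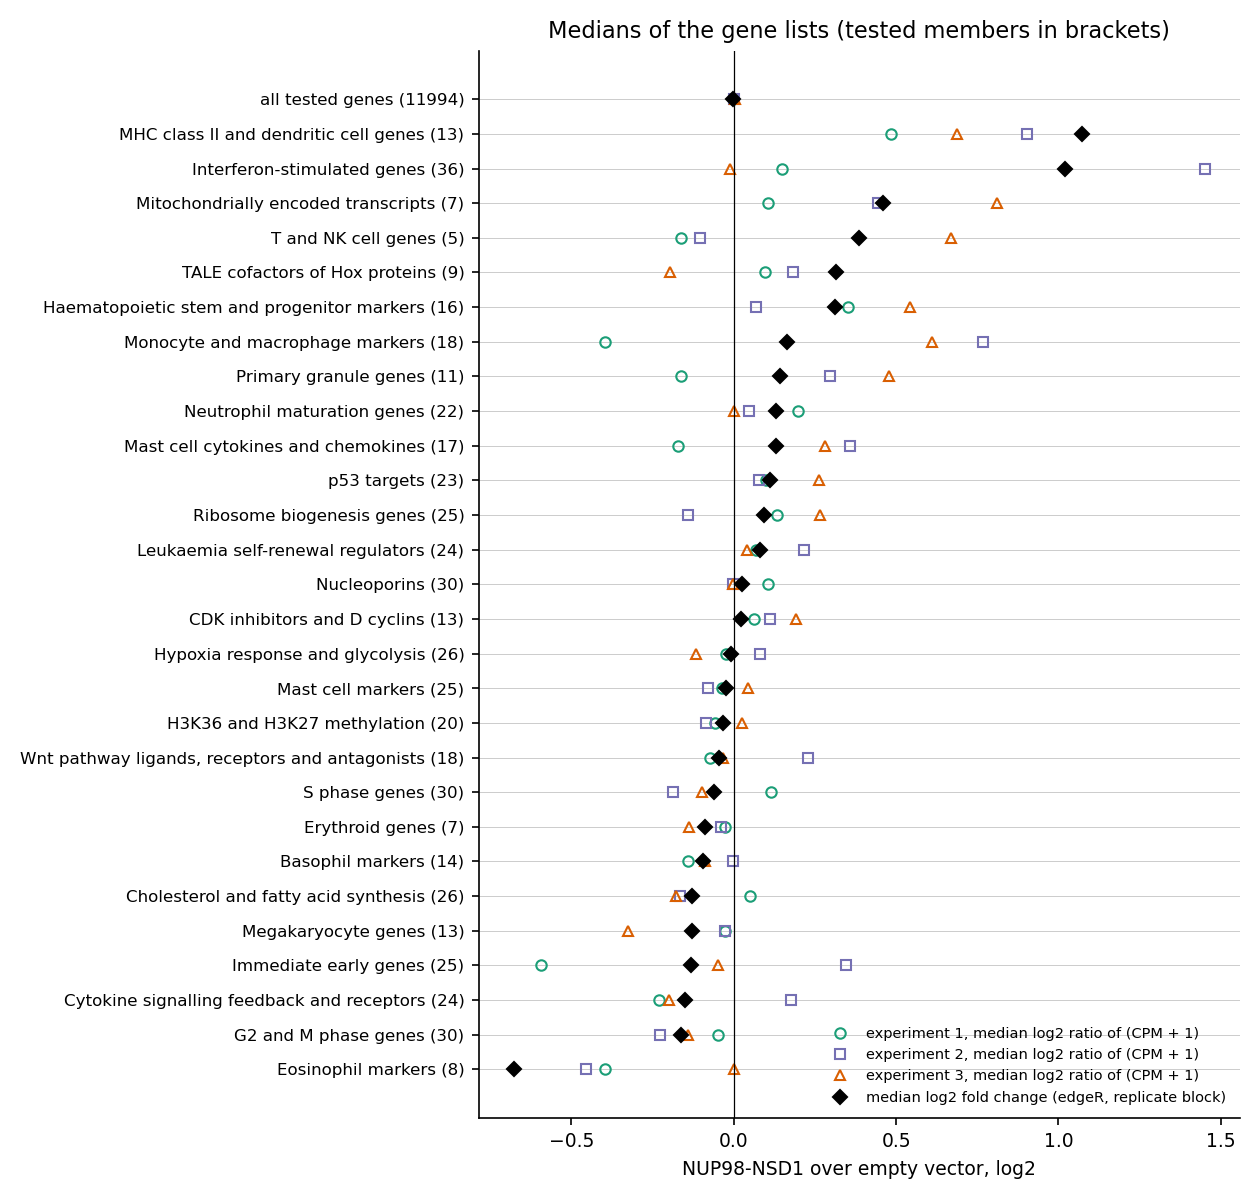
Each row is a gene list with at least 5 tested members, with their number in brackets and all tested genes at the top. Black diamonds give the median log2 fold change of NUP98-NSD1 over empty vector (horizontal axis, log2) and open symbols the median log2 ratio of CPM + 1 in each experiment, and interferon-stimulated genes reach 1.45 in experiment 2 against 0.15 and -0.01 in the others.

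Several genes had larger fold changes than many of the calls without passing the edgeR test. Epha3, an ephrin receptor, was at 72.3, 35.0 and 183 CPM with NUP98-NSD1, against 9.18, 19.1 and 15.6 CPM with the empty vector, with no overlap between the groups (log2 fold change 2.48, SE 0.66, adjusted p = 0.303). Pcp4l1, a small relative of the Purkinje cell protein Pcp4, was at 8.10, 3.91 and 11.2 CPM with NUP98-NSD1 against 0.882, 1.99 and 2.17 CPM with the empty vector (log2 fold change 2.22, SE 0.43, adjusted p = 0.0517), just outside the threshold, and it was called by DESeq2 (adjusted p = 0.0134) and limma-voom (adjusted p = 0.0492). Gbp5, an interferon-induced GTPase, Gcnt2, a glycosyltransferase of the I blood group antigen, and Chpf, a chondroitin polymerizing factor, had log2 fold changes of 2.34, 2.18 and 2.15 (adjusted p = 0.166, 0.139 and 0.122). On the lower side, Morn4, Grm6, Itgb3, Skap1 and Rhbdf1 lay at -1.93, -1.61, -1.50, -1.43 and -1.43. Grm6 was called by DESeq2 (adjusted p = 0.00306). Itgb3, the beta 3 integrin, was at 14.2, 71.2 and 2.35 CPM with NUP98-NSD1 against 50.8, 83.8 and 23.4 CPM with the empty vector (adjusted p = 0.403), and the adjusted p of Skap1 was 0.443. All of these 10 genes had 1 direction in 3 of 3 experiments.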

How the data were processed

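The deposited file gives whole-number counts of reads per gene for 12 libraries in 4 groups of 3, and it holds 0 sample columns that were not used. Per the labels, a strand-marking mRNA kit was applied to 1 µg of total RNA, and sequencing gave single-end reads of 75 nt. Per the submitters' processing notes, reads went through Trimmomatic 0.32, STAR 2.5.3a and featureCounts on mm10. The strand setting of the counting is not given in the sources used here, and 17 of the 33 called genes overlap a gene on the opposite strand, whose reads may not have been told apart. Coordinates are those of the file, 1-based. Promoters are those of the RefSeq table (GRCm38.p6).

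The main fit was edgeR 4.0.16 in R 4.3.3 (robust quasi-likelihood F test, TMM scaling, filterByExpr on the group design) over all 12 libraries, so that the spread was estimated from 4 groups, with the replicate number as a block. SEs were taken from the F statistic. CPM are counts over the total of the tested genes times the TMM factor. Ratios within an experiment add 1 CPM before taking log2. Bounds use a floor of 3 counts over the group, and genes with 1 to 3 empty-vector counts have a 95% exact binomial interval. These cover counting error only, since reads carry no molecular identifiers. No label ties libraries to animals, so each p measures only library-to-library spread, which may be technical.

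The labels describe the samples as run in 3 separate experiments. After group means were removed, same-numbered libraries correlated at 0.476, 0.796 and 0.804 over tested genes, and other pairs of the 2 groups between -0.734 and 0.129, so the numbers were taken to pair the libraries. No replicates of a group agreed within sampling noise (chi-square per degree of freedom between 14.4 and 39.8).

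Genes named were the markers, all called genes without predicted or clone names (2 of 33 have such names), called members of each list or its 2 most highly expressed tested members (given as levels in part), the 5 uncalled genes with the largest change in each direction at 5 CPM or more and the same direction in all pairs, and the HoxA genes. Further uncalled list members were chosen after their values were seen. The members and lists were chosen with earlier results of these data known. Alternatives were RLE and upper-quartile scaling, other filters, DESeq2 1.42.0, limma-voom (limma 3.58.1), no replicate block, the 6 libraries alone, and leaving out libraries or experiments. Some genes are not reported here.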

Additional observations from a re-analysis of the deposited data

How the results depend on the processing

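The main fit called 30 genes higher and 3 lower with NUP98-NSD1. Without the replicate block these counts were 1 and 0. With the 6 control-shRNA libraries alone, and the block, 34 were higher and 0 lower, and 22 of the 33 calls remained. DESeq2 called 60 higher and 16 lower, among them all 33, and no filter on low counts gave 280 and 171, of which 448 of the 451 were among the 11994 genes of the main fit. The cause was not tested. Leaving out 1 library moved the count of higher genes between 4 and 80 and that of lower genes between 0 and 93. Without experiment 1 there were 0 higher and 0 lower, the smallest adjusted p being 0.0693 with 1259 genes at an unadjusted p under 0.05 (fewer samples were fitted). Without experiment 2 there were 57 and 35, and without experiment 3 there were 2 and 0. RLE and upper-quartile scaling, a filter of 1 CPM and limma-voom moved neither count by more than 1.5 times, and limma-voom kept 26 of the 33 calls. The calls lost with limma-voom were Hoxa7, Bahcc1, Cxxc5, Fcho2, Kcnc1, Peli3 and Robo1. Dkk2, Lilra6, Bahcc1 and Egln3 were each called in 1 of the 6 fits with a library left out. All 33 called genes kept their direction in the 17 alternatives. They were picked from these same libraries with ratios of 1 sign in all 3 experiments, so a change of sign was unlikely. Of the gene values given, that of Ifi44 changed sign, with leave-one-out values between -0.26 and 2.17. The medians of 17 of the 33 lists changed sign in at least 1 alternative. Genes with under 3 counts in a library, 0.530 to 0.746 CPM, cannot be ranked at this depth.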

Other observations

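Ribosome biogenesis genes, the factors that build ribosomal subunits, had 0 calls by edgeR or DESeq2 among 25 tested (2 higher at an unadjusted p under 0.05), with 19 above 0 and a median log2 fold change of 0.09. Their medians by experiment were 0.13, -0.14 and 0.27. Cholesterol and fatty acid synthesis genes had 0 calls by either tool among 26 (0 at an unadjusted p under 0.05), with 5 above 0 and a median of -0.13. Targets of p53 had 0 calls by either tool among 23 (2 higher at an unadjusted p under 0.05), with 17 above 0 and a median of 0.11. Cytokine receptors and their feedback regulators had 0 calls by either tool among 24 (1 higher and 2 lower at an unadjusted p under 0.05), with 7 above 0 and a median of -0.15. Of these, Bcl2l1, the survival factor BCL-XL, was at 51.5, 78.3 and 46.1 CPM with NUP98-NSD1 against 74.3, 79.6 and 68.6 CPM with the empty vector (log2 fold change -0.37, adjusted p = 0.272). Immediate early genes, which respond within minutes to stimulation and handling, had 0 calls by either tool among 25 (2 higher at an unadjusted p under 0.05), with medians of -0.60, 0.35 and -0.05 in experiments 1, 2 and 3. Mast cell cytokines and chemokines had 0 calls by either tool among 17 (0 at an unadjusted p under 0.05) and a median of 0.13.

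Hoxa9 kept its order of experiments in the libraries with shRNAs against Nizp1. Hoxa9 was at 14.5, 4.19 and 56.0 CPM in experiments 1, 2 and 3 with NUP98-NSD1 and shNizp1#1, at 16.5, 7.57 and 69.7 CPM with NUP98-NSD1 and shNizp1#2, and at 18.8, 11.0 and 62.8 CPM with NUP98-NSD1 and the control shRNA. Kcnc1, at 4.60, 0.373 and 41.6 CPM with the control shRNA, was at 4.52, 3.07 and 44.0 CPM with shNizp1#1 and at 2.94, 0.155 and 49.3 CPM with shNizp1#2. Both genes were highest in experiment 3 and lowest in experiment 2 with each of the 3 shRNAs.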
